A study of Mus musculus with 28 samples.

Results

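Transcripts of 8 genes of the AP-1 transcription factor were followed across 28 RNA-seq libraries of CD4+ T cells sorted from mouse small intestinal lamina propria. The genes were Fos, Fosb, Fosl1, Fosl2, Jun, Junb, Jund and Atf3. They were chosen by symbol, and all 8 are among the 25124 genes of the deposited table. Of these, 7 passed the filter for testing, a level of at least 1 TPM (a length-corrected share of all transcripts in the library) in at least 6 libraries. Fosl1 did not pass. The mice carried T-bet-ZsGreen, a fluorescent reporter of the transcription factor T-bet, in every group, controls included. Cells were gated as live, CD45+, CD90.2+, TCRb+ and CD4+. Mice were specific-pathogen-free (SPF), and so colonised by a gut flora, or germ-free (GF), and were given aCD3, an antibody to the CD3 chains of the T cell receptor, or its isotype control. There were 6 libraries each of SPF isotype and SPF aCD3, with 3 from females and 3 from males in either group. GF isotype had 10, with 5 from each sex, and GF aCD3 had 6, of which 1 was from a female. Age, antibody dose and the time from injection to sampling were not used here. Libraries are named by group, sex letter and number. The labels do not say that each library is a separate animal, so p-values rest on the spread between libraries. For limma that spread was shared over all 4 groups. Per the labels' protocols, intestine pieces from every group were stirred in warm medium with EDTA and DTT before cells were recovered.

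AP-1 proteins bind DNA in pairs through a basic leucine zipper (bZIP). Jun proteins pair with each other or with Fos proteins, whereas Fos proteins need a partner such as a Jun protein. In T cells, receptor and costimulatory signals raise several of these genes within minutes through MAP kinases and serum response factor, and the messages decay quickly. With NFAT, AP-1 is known for activating cytokine genes such as Il2. Cell stress is also known to raise Fos, Jun and Atf3.

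Promoter sequences are shown for 4 members: Fos and Jun because their ratio separated the GF from the SPF libraries, Junb as the member with the highest level, and Jund because it fell less than Jun. RefSeq promoters (build GRCm38.p6) were found for 7 of 8 members, not for Fosl1, and each starts at the same base as in the deposited table. Each sequence is the 250 bases before the start of the listed transcript, 5′ to 3′ on the gene's strand. Capitals mark matches to any of 5 motifs searched on both strands.
Fos, chr12:85473640-85473889, plus strand: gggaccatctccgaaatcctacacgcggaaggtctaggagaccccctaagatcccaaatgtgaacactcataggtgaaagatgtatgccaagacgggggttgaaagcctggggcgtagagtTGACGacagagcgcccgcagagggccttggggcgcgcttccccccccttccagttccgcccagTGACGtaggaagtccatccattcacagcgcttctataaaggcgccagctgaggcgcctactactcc
Jun, chr4:95052223-95052472, minus strand: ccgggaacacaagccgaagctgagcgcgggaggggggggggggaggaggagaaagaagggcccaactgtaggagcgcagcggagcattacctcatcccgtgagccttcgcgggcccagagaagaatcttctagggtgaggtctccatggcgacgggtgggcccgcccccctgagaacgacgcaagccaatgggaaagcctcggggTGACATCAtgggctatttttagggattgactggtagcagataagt
Junb, chr8:84978749-84978998, minus strand: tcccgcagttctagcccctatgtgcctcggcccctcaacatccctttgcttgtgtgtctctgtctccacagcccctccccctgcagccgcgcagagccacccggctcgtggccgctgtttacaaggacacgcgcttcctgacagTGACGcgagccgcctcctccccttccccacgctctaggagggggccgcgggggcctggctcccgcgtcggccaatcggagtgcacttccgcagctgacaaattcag
Jund, chr8:70697489-70697738, plus strand: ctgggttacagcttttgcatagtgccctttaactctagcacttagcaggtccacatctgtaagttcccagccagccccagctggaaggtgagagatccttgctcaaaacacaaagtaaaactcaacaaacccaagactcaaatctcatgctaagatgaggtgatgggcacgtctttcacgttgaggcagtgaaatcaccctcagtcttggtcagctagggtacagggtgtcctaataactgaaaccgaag

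The motifs were TGANTCA, the site bound by Fos-Jun pairs, which 6.75% of 32851 RefSeq promoters of the same length held, and TGACNTCA, the cyclic AMP response element form, held by 7.49%. The CArG box of serum response factor was held by 1.47% and the Egr site GCGNGGGCG by 4.7%. TGACG, the short core of the cyclic AMP response element, was added after the sequences had been seen, was held by 17.8%, and lies within TGACNTCA where N is G. In Fos, TGACG lay 129 to 125 and 66 to 62 bases before the start. In Jun, TGACNTCA lay 45 to 38 bases before it, and that match holds no TGACG. In Junb, TGACG lay 106 to 102 bases before the start. Jund held none of the 5 motifs in this window. Outside the printed set, Fosb held TGACG and GCGNGGGCG, Fosl2 held GCGNGGGCG, and Atf3 held TGACG on the strand opposite to the gene. A match is a string of letters and was not read as a bound site.

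Reads assigned to genes ran from 6765529 to 17860638 per library, recovered from the deposited TPM. CD4 T cell markers (10 genes: Cd3d, Cd3e, Cd3g, Cd4, Cd5, Cd2, Cd28, Lck, Thy1 and Ptprc) summed to between 2030 and 2710 TPM in every library. Histone genes took 4.05 to 7.04% of the TPM in SPF isotype and 3.79 to 9.24% in GF isotype. After aCD3 they took 23.8 to 26.8% in SPF and 5.39 to 25.97% in GF. Within GF aCD3, M1, M2 and M5 were at 23.4%, 23.1% and 25.97%, and F1, M3 and M4 at 5.39%, 7.46% and 6.43%. Since values are shares, each comparison was also run after median of ratios scaling, which sets the typical gene to no change. The sample numbers in the column names were 1 to 12 for SPF, and 25 to 33 (GF run 1) or 48 to 54 (GF run 2) for GF, so colonisation and number range cannot be told apart. The labels do not say what these ranges mark, and run is only a name for them here. In sorted bulk cells, fewer cells of a type and less RNA per cell cannot be told apart.

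Levels between genes are per base of genomic span, introns included, which lowers genes with long introns such as Fosl2 and Atf3. In SPF isotype the mean levels were 7110 TPM for Junb, 2635 for Fos, 2296 for Jun, 939 for Jund, 376 for Fosb, 74.5 for Fosl2, 15.1 for Atf3 and 0.498 for Fosl1. Fos and Jun are neighbours in this order whose ranges overlap, and the other neighbours did not overlap. Junb also had the highest level of the 8 in each other group. By group mean, Fos, Fosb, Jun, Junb, Jund and Atf3 each had the order SPF isotype, GF isotype, GF aCD3, SPF aCD3, from high to low. Neighbouring groups in that order overlapped for all 6, except for Jun between SPF isotype and GF isotype. Fosl2 had another order, with means of 95.2 TPM in GF isotype, 90.9 in GF aCD3, 74.5 in SPF isotype and 52.1 in SPF aCD3, and its neighbouring groups overlapped. Atf3 rested on 34 to 423 reads per library, so it is the least precise of the tested members. Fosl1, a Fos relative without the activation domain of Fos, had 0 to 30 reads and reached 1 TPM in 3 libraries. It was listed at 0 in SPF isotype F2 and GF isotype F1, where 0 reads allow up to 0.254 and 0.392 TPM, limits that cover counting error only. Fosl1 spans mm10 chromosome 19, 5447698 to 5455938, and overlaps Ccdc85b on the other strand. Whether strand was used in counting is not given in the sources used here. In a fit without the low-value filter, its SPF aCD3 minus isotype difference was 0.41 (SE 0.18, limma adjusted p = 0.0621). With Rn45s and histone genes left out and the rest rescaled it passed the filter, and was then higher in SPF aCD3 than in SPF isotype (0.68, SE 0.22, limma adjusted p = 0.00948) and lower in GF aCD3 than in SPF aCD3 (-0.64, SE 0.22, limma adjusted p = 0.0261).

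**Figure D1:**
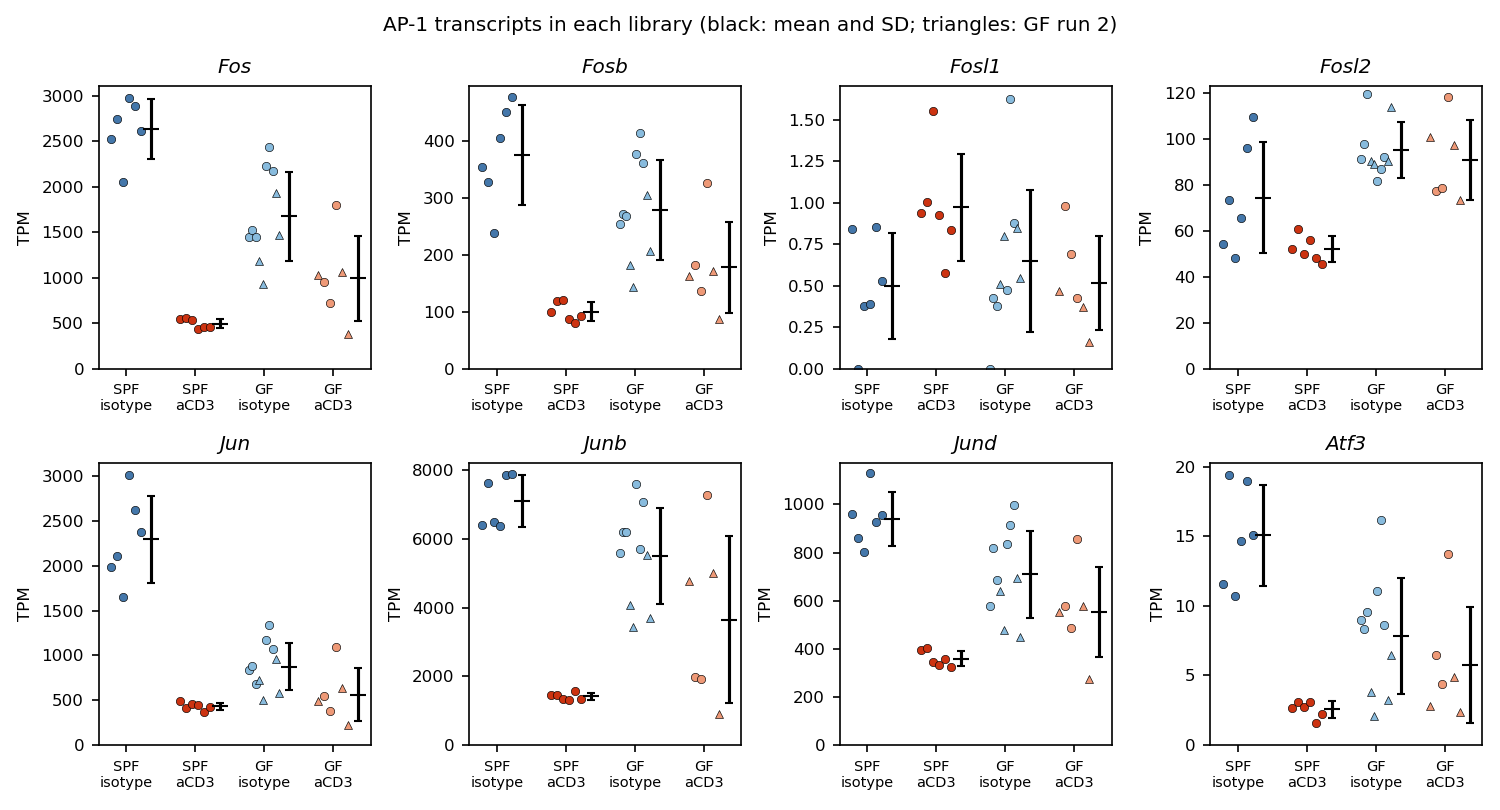
TPM of each AP-1 gene (vertical axis, linear from 0) in every library of the 4 groups, with the mean and SD in black and triangles for GF run 2. Fos, Jun, Junb, Jund, Fosb and Atf3 sit lower in all 6 SPF aCD3 libraries than in any SPF isotype library, and the GF aCD3 libraries spread widely (Junb 905 to 7274 TPM).

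SPF aCD3 against SPF isotype gives the response to aCD3 in colonised mice. All 7 tested members were lower after aCD3, where 50.7% of all genes tested were lower. Fos, Jun, Junb and Atf3 fell to about the same extent, with SPF isotype means 5.32, 5.31, 5.03 and 5.88 times the SPF aCD3 means. Fosb, Jund and Fosl2 differed less, at 3.77, 2.62 and 1.43 times. The members had a median log2 fold change of -2.16, against -0.35 over all genes.

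Fos, the partner in most early AP-1 pairs (NM_010234, mm10 chromosome 12, 85473890 to 85477274, plus strand), was at 2051 TPM in the lowest, 2679 in the median and 2980 in the highest SPF isotype library. In SPF aCD3 these were 434, 494.5 and 552 TPM. The groups did not overlap, the lowest isotype library being SPF isotype F3. The means were 2635 ± 331 and 495 ± 53.5 TPM (SD, n = 6 each), log2 fold change -2.41 (SE 0.24, limma adjusted p = 3.35e-07). Fosb, a Fos paralog (NM_001347586, chromosome 7, 19302696 to 19310045, minus strand), ran from 238 to 477 TPM, median 379.5, in SPF isotype and from 80.8 to 120.4, median 95.5, in SPF aCD3. All 6 aCD3 libraries again lay below all isotype libraries (-1.88, SE 0.24, limma adjusted p = 2.8e-06). Fosl2 (NM_008037, chromosome 5, 32136472 to 32157839, plus strand), a slower member of the family, ran from 48.1 to 109.7 TPM, median 69.5, in isotype and from 45.5 to 60.9, median 51.1, in aCD3. Its groups overlapped, with 1 of 6 aCD3 libraries below all isotype libraries (-0.45, SE 0.16, limma adjusted p = 0.0131). Without SPF isotype M3, its highest library, the Fosl2 value was -0.33 (limma adjusted p = 0.0522), and after median of ratios scaling -0.04 (limma adjusted p = 0.769).

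Jun, the founding partner of Fos and able to pair with itself (NM_010591, chromosome 4, 95049036 to 95052222, minus strand), ran from 1657 to 3016 TPM, median 2243, in SPF isotype and from 365 to 492, median 433, in SPF aCD3. Every aCD3 library lay below every isotype library (means 2296 ± 484 and 432 ± 42.5 TPM, log2 fold change -2.39, SE 0.25, limma adjusted p = 4.85e-07). Junb, which can restrain or replace Jun (NM_008416, chromosome 8, 84976909 to 84978748, minus strand), ran from 6375 to 7876 TPM, median 7062, in isotype and from 1311 to 1573, median 1405, in aCD3. These groups were apart in all 6 libraries (7110 ± 757 and 1414 ± 102 TPM, -2.33, SE 0.33, limma adjusted p = 5.06e-06). Jund, the Jun relative that is usually present in resting cells (NM_001286944, chromosome 8, 70697739 to 70700616, plus strand), ran from 804 to 1131 TPM, median 940.4, and from 325 to 403, median 350.1. Its groups also did not overlap (-1.38, SE 0.20, limma adjusted p = 6.3e-06).

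Atf3, a stress-induced bZIP factor that can repress (NM_007498, chromosome 1, 191170297 to 191183333, minus strand), was at 10.7 to 19.4 TPM, median 14.9, in SPF isotype and 1.55 to 3.13, median 2.7, in SPF aCD3. All 6 aCD3 libraries were lower than any isotype library (-2.16, SE 0.34, limma adjusted p = 1.24e-05). After median of ratios scaling 6 of 7 members were lower, against 29.8% of genes, and Fosl2 was the exception. Their log2 fold changes then ran from -0.97 (Jund) to -1.99 (Fos). Over all genes the scaling moved the split from 1726 higher and 6172 lower to 3680 higher and 3628 lower.

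Other measures moved with this comparison, and their part in the result was not tested. B and plasma cell markers (7 genes) summed to 95.8 to 272 TPM in SPF isotype and 2.55 to 8.82 TPM in SPF aCD3. Of these, Jchain alone had means of 169 and 0.792 TPM. Myeloid markers (10 genes, C1qa and C1qb at 0 in every SPF aCD3 library) summed to 3.98 to 12.8 and 57.8 to 149 TPM. Most of the later sum was Cd68, which alone had means of 5.99 and 76.5 TPM. Only 2 of the 10 were tested, and Cd68 was higher (3.83, limma adjusted p = 3.3e-06). The median of these 2 was 1.63, and the other lay below 0, so the sum does not speak for the myeloid markers as a set. Stromal markers (6 genes, Col1a2 at 0 in every SPF aCD3 library) summed to 4.42 to 42.1 and 0.467 to 2.28 TPM, and the 3 erythroid markers to 1.48 to 5.32 TPM and 0. Epithelial markers (7 genes) overlapped, at 6.17 to 15 and 4.84 to 9.52 TPM, as did the 2 CD8 markers, at 5.68 to 13.5 and 9.75 to 23.8 TPM. No sum of another cell type in these 12 libraries exceeded 272 TPM, beside at least 2030 TPM for the CD4 T cell markers. Heat shock genes (9 genes, chaperones that stress raises) summed to 9340 to 17900 TPM in SPF isotype and 2670 to 4340 TPM in SPF aCD3.

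**Figure D2:**
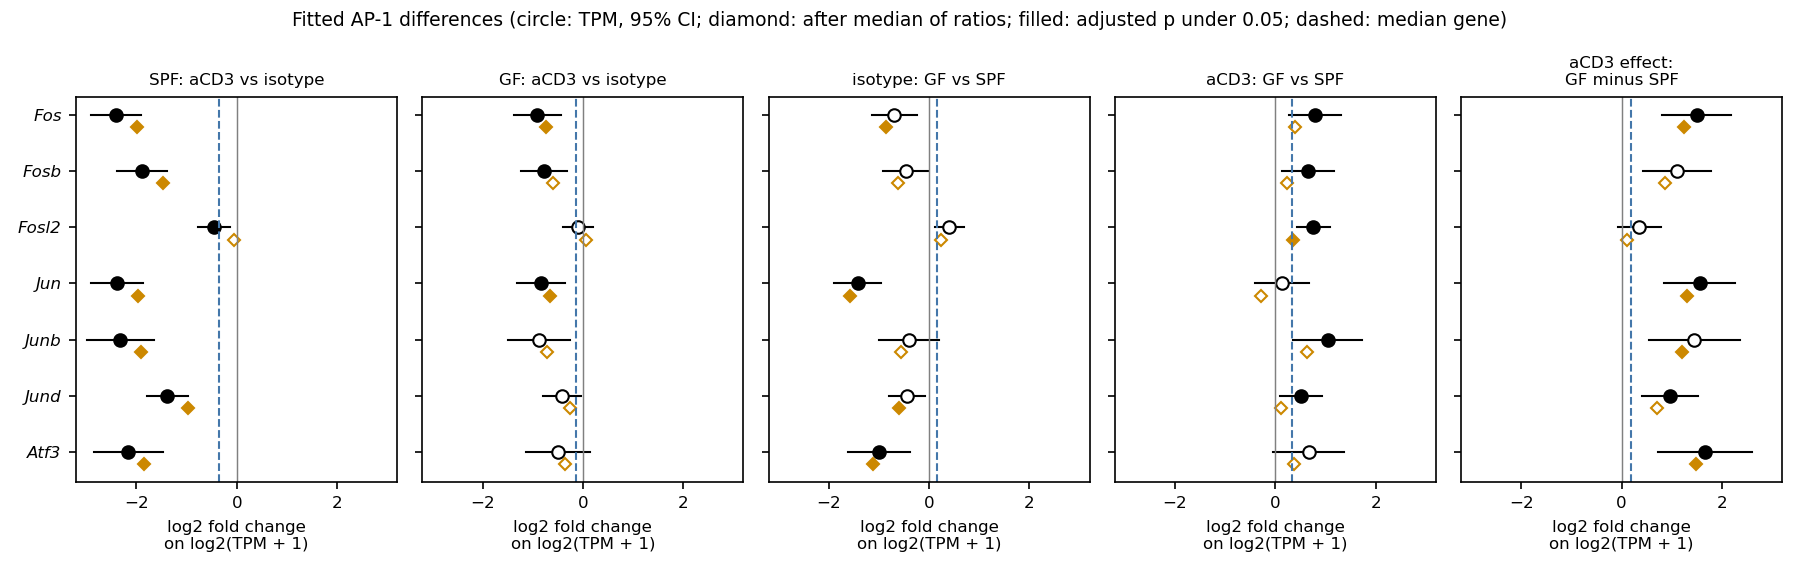
Fitted log2 fold changes of the 7 tested members (horizontal axis, on log2(TPM + 1)) in 5 comparisons, as circles with 95% confidence intervals, with values after median of ratios scaling as diamonds, filled marks for limma adjusted p under 0.05 and a dashed line at the median gene. In SPF mice 6 members lie near or beyond -1.4 while Fosl2 lies beside the median gene, and between isotype groups Jun is the farthest below 0.

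The same question in germ-free mice gave smaller differences. In GF aCD3 against GF isotype, 3 of 7 members were lower (Fos, Jun and Fosb), where 4.61% of genes were lower, and the lowest adjusted p of these was 0.0481. With 1 library left out at a time, none of the 7 passed in 25 of 28 fits. Of the rest, 4 passed without GF aCD3 F1 or M4 and 5 without GF aCD3 M3, so the calls depend on which libraries are in the fit.

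Fos ran from 934 to 2437 TPM, median 1498, in GF isotype and from 384 to 1796, median 994.5, in GF aCD3. The groups overlapped, with 2 of 6 aCD3 libraries (M2 and M5) below all isotype libraries. The means were 1677 ± 489 (SD, n = 10) and 993 ± 468 TPM (n = 6), log2 fold change -0.91 (SE 0.23, limma adjusted p = 0.0481). Fosb ran from 144 to 414 TPM, median 269.6, and from 87.8 to 326, median 167, and 2 of 6 aCD3 libraries lay below all isotype libraries (-0.77, SE 0.23, limma adjusted p = 0.0484). Jun ran from 504 to 1344 TPM, median 859.8, and from 224 to 1090, median 518, with 3 of 6 aCD3 libraries below all isotype libraries (-0.83, SE 0.23, limma adjusted p = 0.0481). After median of ratios scaling Fos and Jun passed and Fosb did not (limma adjusted p = 0.0516), against 4.02% of genes lower.

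Junb was at 4769, 1977, 1925, 7274, 5022 and 905 TPM in GF aCD3 F1, M1, M2, M3, M4 and M5. The 3 libraries below all GF isotype libraries (3424 to 7612 TPM, median 5647) were M1, M2 and M5, the same 3 with a histone share above 23%. Its fitted difference was -0.88 (SE 0.30, limma adjusted p = 0.0594). Jund, at 275 to 855 TPM against 449 to 995, gave -0.42 (limma adjusted p = 0.106), and Atf3, at 2.36 to 13.7 TPM against 2.12 to 16.2, gave -0.50 (limma adjusted p = 0.243). Fosl2 gave -0.10 (95% interval -0.39 to 0.20, limma adjusted p = 0.635) and turned to 0.07 after median of ratios scaling. Over all genes that scaling changed the split from 300 higher and 562 lower to 685 higher and 490 lower.

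Within number ranges the direction held for 6 of the 7 members, with no call. In GF run 1 (3 aCD3, 6 isotype) the log2 fold changes were -1.08 for Fos, -0.97 for Jun, -1.16 for Junb and -0.93 for Fosb. In GF run 2 (3 aCD3, 4 isotype) they were -0.85, -0.70, -0.51 and -0.61, with limma adjusted p from 0.734 to 0.759. Fosl2 had values of 0.05 in run 1 and -0.09 in run 2. Myeloid markers summed to 3.9 to 20.1 TPM in GF isotype and 9.05 to 69.0 TPM in GF aCD3, B and plasma cell markers to 11 to 114 and 6.67 to 97.7 TPM, and heat shock genes to 2290 to 8010 and 3120 to 7220 TPM. Of the myeloid markers, Cd68 alone had means of 10.4 and 29.9 TPM. Stromal sums were at most 2.82 and 2.87 TPM. Epithelial sums were 5.77 to 41.9 and 5.53 to 28.4 TPM, with Lgals4 lower (-0.85, limma adjusted p = 0.0484) among 6 markers tested. These sums overlap between the groups, and their part in the result was not tested.

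GF isotype against SPF isotype compares colonisation states without CD3 antibody. Of 7 members, 2 were lower in GF, Jun and Atf3, where 0.755% of all genes were lower. For Jun, all 10 GF isotype libraries (504 to 1344 TPM) lay below all 6 SPF isotype libraries (1657 to 3016 TPM). The means were 876 ± 267 (n = 10) and 2296 ± 484 TPM (n = 6), so the SPF mean was 2.62 times the GF mean (log2 fold change -1.42, SE 0.23, limma adjusted p = 0.000624). Jun passed in 28 of 28 fits with 1 library left out, with limma adjusted p from 8.48e-05 to 0.00218.

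Atf3 had means of 7.85 ± 4.18 TPM in GF isotype and 15.1 ± 3.64 in SPF isotype. The groups overlapped, with 8 of 10 GF libraries below every SPF library (-0.99, SE 0.30, limma adjusted p = 0.0432). It passed in 15 of 28 fits with 1 library left out. Within GF isotype, Atf3 was 8.34 to 16.2 TPM in run 1 and 2.12 to 6.45 TPM in run 2, which did not overlap. With GF run as a term its value was -0.54 (limma adjusted p = 0.107), but that term sets GF at its run 1 level. That value thus compares GF run 1 with SPF and does not adjust for run. Mean Atf3 in GF isotype was 10.5 TPM in run 1 and 3.91 TPM in run 2.

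The remaining members did not pass. Fos was lower than every SPF library in 7 of 10 GF libraries (-0.70, SE 0.22, limma adjusted p = 0.0504), and Jund in 6 of 10 (-0.44, SE 0.18, limma adjusted p = 0.123). Fosb gave -0.46 (limma adjusted p = 0.184) and Junb -0.41 (95% interval -1.004 to 0.19, limma adjusted p = 0.391). Fosl2 was on the other side of 0, at 0.40 (SE 0.14, limma adjusted p = 0.0747). Fosl2 passed without SPF isotype M2 (0.0469) or M3 (0.023), and Fos passed in 6 of 28 fits with 1 library left out. After median of ratios scaling 4 members were lower (Fos, Jun, Jund and Atf3), against 1.16% of genes. The split over all genes went from 782 higher and 92 lower to 63 higher and 141 lower. Heat shock sums were 2290 to 8010 TPM in GF and 9340 to 17900 TPM in SPF isotype, which did not overlap. Stromal sums, 0.384 to 2.82 and 4.42 to 42.1 TPM, did not overlap, and B and plasma cell sums were 11 to 114 and 95.8 to 272 TPM. Erythroid sums were 0 to 1.47 and 1.48 to 5.32 TPM. Epithelial sums, 5.77 to 41.9 and 6.17 to 15 TPM, overlapped. Their part in the result was not tested.

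Colonisation with CD3 antibody was read from GF aCD3 against SPF aCD3. Here 5 of 7 members were higher in GF (Junb, Fos, Fosl2, Fosb and Jund), where 48.9% of genes were higher and the median gene differed by 0.34. Fosl2 was the only member of the 7 whose groups did not overlap, at 73.4 to 118 TPM, median 87.9, in GF aCD3 and 45.5 to 60.9 TPM, median 51.1, in SPF aCD3. Its means were 90.9 ± 17.4 and 52.1 ± 5.56 TPM (n = 6 each), log2 fold change 0.76 (SE 0.16, limma adjusted p = 0.000886). After median of ratios scaling Fosl2 was also the only member to pass (0.35, limma adjusted p = 0.0317), against 16.0% of genes higher.

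Junb had means of 3645 ± 2432 TPM in GF aCD3 and 1414 ± 102 TPM in SPF aCD3, and 5 of 6 GF libraries lay above all SPF libraries, the exception being GF aCD3 M5 (1.04, SE 0.33, limma adjusted p = 0.0118). The SE rests on a spread shared by all 4 groups. The SD as a percent of the mean was 66.7% in GF aCD3 and 7.24% in SPF aCD3, so that SE can be too small. Without GF aCD3 F1 its adjusted p was 0.0597. Fos (993 ± 468 and 495 ± 53.5 TPM) gave 0.80 (SE 0.25, limma adjusted p = 0.0107), Fosb 0.65 (limma adjusted p = 0.0325) and Jund 0.52 (limma adjusted p = 0.0345), each with 5 of 6 GF libraries above all SPF libraries. Fosb passed in 22 and Jund in 21 of the 28 fits with 1 library left out. Fosb lost its call without SPF aCD3 M1, M2 or M3 or GF aCD3 F1, M3 or M4 (limma adjusted p 0.0511 to 0.103), and Jund without those or GF aCD3 M1 (0.0517 to 0.105). Jun (562 ± 296 and 432 ± 42.5 TPM) did not pass (0.13, 95% interval -0.40 to 0.67, limma adjusted p = 0.686) and turned to -0.28 after median of ratios scaling. Atf3 gave 0.67 (limma adjusted p = 0.102, and 0.0409 without GF aCD3 M5). That scaling changed the split over all genes from 5953 higher and 543 lower to 1955 higher and 2033 lower. Beside these values, the histone share was above 23% in all SPF aCD3 and 3 of 6 GF aCD3 libraries. Myeloid sums were 9.05 to 69.0 TPM in GF and 57.8 to 149 TPM in SPF aCD3, and B and plasma cell sums 6.67 to 97.7 and 2.55 to 8.82 TPM. Cd68 alone had means of 29.9 and 76.5 TPM. The median of the 2 myeloid genes tested was -0.64, with Cd68 at -1.885 and the other above 0. Stromal sums, 0.501 to 2.87 and 0.467 to 2.28 TPM, and heat shock sums, 3120 to 7220 and 2670 to 4340 TPM, overlapped. Epithelial sums, 5.53 to 28.4 and 4.84 to 9.52 TPM, overlapped too, with Epcam higher (0.53, limma adjusted p = 0.0216) and Krt18 lower (-0.97, limma adjusted p = 0.0311) in GF among 6 markers tested. Their part in the result was not tested.

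The difference between the aCD3 effects was tested directly as the GF effect minus the SPF effect. It was above 0 for 4 of 7 members (Jun, Fos, Atf3 and Jund), where 2.44% of genes were above 0. The values were 1.55 for Jun (SE 0.35, limma adjusted p = 0.0218), 1.5 for Fos (SE 0.33, limma adjusted p = 0.0218), 1.66 for Atf3 (SE 0.46, limma adjusted p = 0.0455) and 0.96 for Jund (SE 0.27, limma adjusted p = 0.048). For Jun the aCD3 effect was -2.39 in SPF and -0.83 in GF, and for Fos -2.41 and -0.91. GF against SPF gave -1.42 in isotype and 0.13 in aCD3 for Jun (limma adjusted p = 0.000624 and 0.686). The Jun difference thus lay mostly between the isotype groups. For Fos these 2 values were -0.70 and 0.80, for Atf3 -0.99 and 0.67, and for Jund -0.44 and 0.52. The difference for Junb (1.45, SE 0.44, limma adjusted p = 0.0569) and Fosb (1.11, SE 0.33, limma adjusted p = 0.0544) did not pass, nor did that for Fosl2 (0.36, 95% interval -0.08 to 0.79, limma adjusted p = 0.237). Jun and Fos kept their calls in 27 of 28 fits with 1 library left out, and without GF aCD3 F1 none of the 7 passed (0.0708 for Jun, 0.0757 for Fos). Jund passed in 6, Atf3 in 8, and Junb and Fosb each in 4 of those fits. After median of ratios scaling the 4 members were Fos, Jun, Junb and Atf3, against 5.3% of genes above 0, and the split over all genes went from 297 above and 127 below to 646 above and 736 below. Single markers of other cell types passed in the same difference. The plasma cell gene Jchain (4.42, limma adjusted p = 0.0288) was 1 of 3 B and plasma cell genes tested. The myeloid gene Cd68 (-2.84, limma adjusted p = 0.0289) was 1 of 2 tested. The median of these 2 was -1.12, and the other lay above 0. Of 3 stromal genes tested, Dcn (2.49, limma adjusted p = 0.000532) and Col1a1 (2.40, limma adjusted p = 0.0009) passed. Of the 9 heat shock genes 3 passed, all above 0. Their part in the result was not tested.

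The members did not move in one proportion, which ratios within a library show without any scaling. The ratio of Fos to Jun TPM was 0.988 to 1.3 in SPF isotype (median 1.17) and 0.977 to 1.32 in SPF aCD3 (median 1.14). It was 1.64 to 2.5 in GF isotype (median 1.87) and 1.65 to 2.09 in GF aCD3 (median 1.74). All 16 GF libraries thus lay above all 12 SPF libraries, whichever antibody was given. On the log2 scale GF exceeded SPF by 0.73 in isotype (two-sided exact permutation p = 0.00025, adjusted 0.0012) and by 0.65 in aCD3 (exact permutation p = 0.00216, the smallest that 924 arrangements allow, adjusted 0.00649). GF run 1 and GF run 2 each lay above the SPF range, with lowest ratios of 1.65 and 1.64. The aCD3 difference in this ratio was -0.02 in SPF (SE 0.09, exact permutation p = 0.81) and -0.10 in GF (SE 0.08, exact permutation p = 0.251). These ratios were chosen after the levels had been seen, and p-values were adjusted over 24 tests of 6 ratios.

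**Figure D3:**
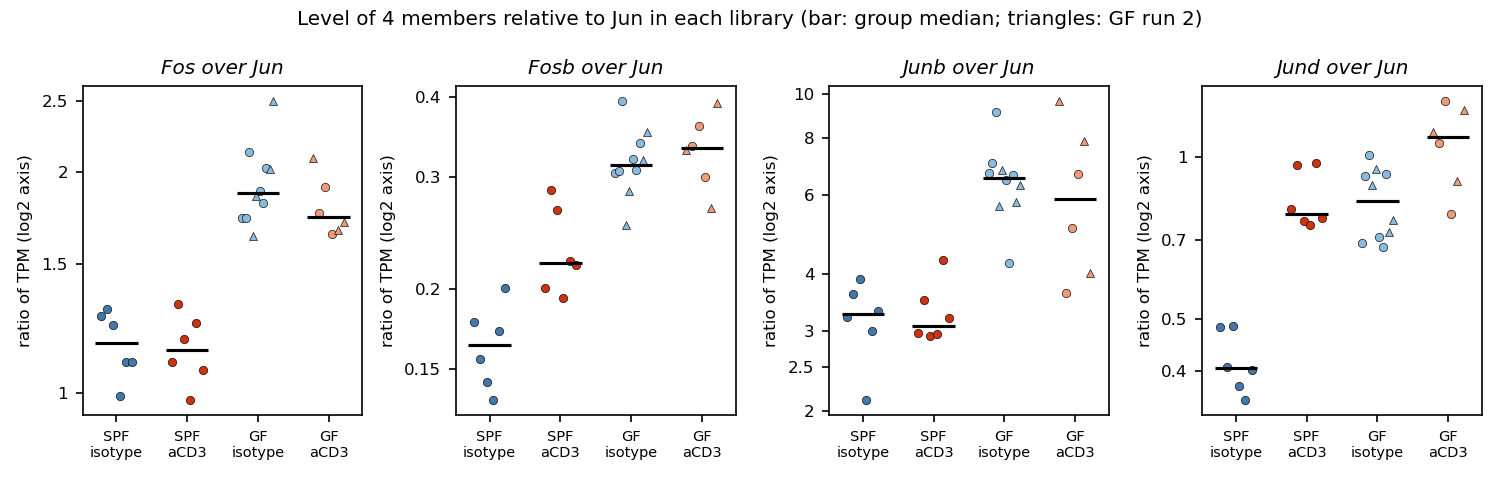
Ratio of Fos, Fosb, Junb and Jund TPM to Jun TPM (vertical log2 axis) in each library by group, with the group median as a bar and triangles for GF run 2. The Fos to Jun ratio is at most 1.32 in SPF and at least 1.64 in GF libraries, and the Jund to Jun ratio is lowest in SPF isotype.

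The 6 ratios share Jun as denominator, so their tests are not independent. Between the isotype groups, where Jun differed most of the 7 tested members, each ratio carries the lower Jun level of GF isotype. The ratio of Junb to Jun was 2.11 to 3.91 in SPF isotype and 4.25 to 9.13 in GF isotype, and did not overlap (log2 difference 1.02, exact permutation p = 0.00025, adjusted 0.0012). Neither did Fosb to Jun (0.134 to 0.201 and 0.253 to 0.394, difference 0.96) or Jund to Jun (0.353 to 0.485 and 0.681 to 1.01, difference 0.98), each with the same exact permutation p. Fosl2 to Jun differed by 1.83 in the same way. Atf3 to Jun is the exception, with a log2 difference of 0.30 (SE 0.25, exact permutation p = 0.337) and overlapping groups.

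Within SPF mice, aCD3 came with a higher ratio of Jund to Jun, from 0.353 to 0.485 in isotype to 0.748 to 0.976 in aCD3 (log2 difference 1.00, exact permutation p = 0.00216, adjusted 0.00649). Fosl2 to Jun rose by 1.93 with the same p, again without overlap. Fosb to Jun rose by 0.49 with overlapping groups (exact permutation p = 0.00433, adjusted 0.0104). The ratio of Junb to Jun was 2.11 to 3.91 and 2.93 to 4.31, a difference of 0.06 (SE 0.16, exact permutation p = 0.723). Within GF mice Jund to Jun rose by 0.35 (exact permutation p = 0.0147, adjusted 0.0272).

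For Junb the highest library was 1.2 times the lowest in SPF aCD3, 1.24 in SPF isotype, 2.22 in GF isotype and 8.04 in GF aCD3. Fos (1.27, 1.45, 2.61 and 4.67), Fosb, Jun and Jund showed the same order, so 5 of 7 tested members shared it. The other two did not, since Fosl2 spread most in SPF isotype (2.28, against 1.61 in GF aCD3 and 1.47 in GF isotype) and Atf3 in GF isotype (7.64, against 5.82 in GF aCD3). GF isotype has 10 libraries against 6, and more libraries can widen such a ratio. GF aCD3 M3 was the highest of its group for 7 of 7 tested members and GF aCD3 M5 the lowest for 7 of 7. In SPF aCD3 the lowest library was M1, M2 or M3, depending on the member. SPF isotype F3 was the lowest of its group for 6 of 7, and its ribosomal RNA precursor Rn45s took 22.9% of TPM where the others of the group had 13.2 to 14.9%. GF isotype F5 was the lowest for 5 of 7. Between male and female libraries limma called 0 of 7 members, with 0 at an unadjusted p under 0.05, where 0.107% of genes passed. The male minus female values ran from -0.01 (Junb) to 0.27 (Fosb, Jun and Atf3).

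The genes most like each member were taken by the mean absolute difference of standardised log2(TPM + 1) over 28 libraries, where a low value means a similar pattern. The search left out the members themselves and genes with Gm, Mir, Snor or Rik symbols. Outside the members, nearest to Fos were Tagap (0.148), Klf4 (0.204) and Klf6 (0.206), against 0.814 for the median gene. Klf4 and Klf6 encode zinc finger transcription factors. Fosb (Klf4, Tagap and Rgcc) and Jund (Klf4, Tagap and Klf6) shared that neighbourhood. Nearest to Junb were Ier5 (0.157), Btg2 (0.163) and Cd69 (0.184), the last an early activation marker of lymphocytes. Nearest to Jun were Rhob (0.191) and the chaperone genes Hspa1b (0.217) and Dnajb1 (0.224), and nearest to Atf3 were Zfp36 (0.335), Hspa1b (0.351) and Hspa1a (0.355). Hspa1b means were 5103 TPM in SPF isotype and 443 after aCD3, and 1158 TPM in GF isotype and 616 after aCD3. Fosl2 had the nearest genes Slc35d1 (0.334), Cdip1 (0.335) and Lin54 (0.337) and its nearest member, Junb, at 0.66. Among the members, the nearest to Fos was Fosb (0.18), which was also the nearest to Atf3 (0.315). Fos was the nearest to Fosb (0.18), Jund (0.21), Junb (0.266) and Jun (0.349). For Fosb, Jund and Atf3 that member was nearer than any gene in that search.

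**Figure D4:**
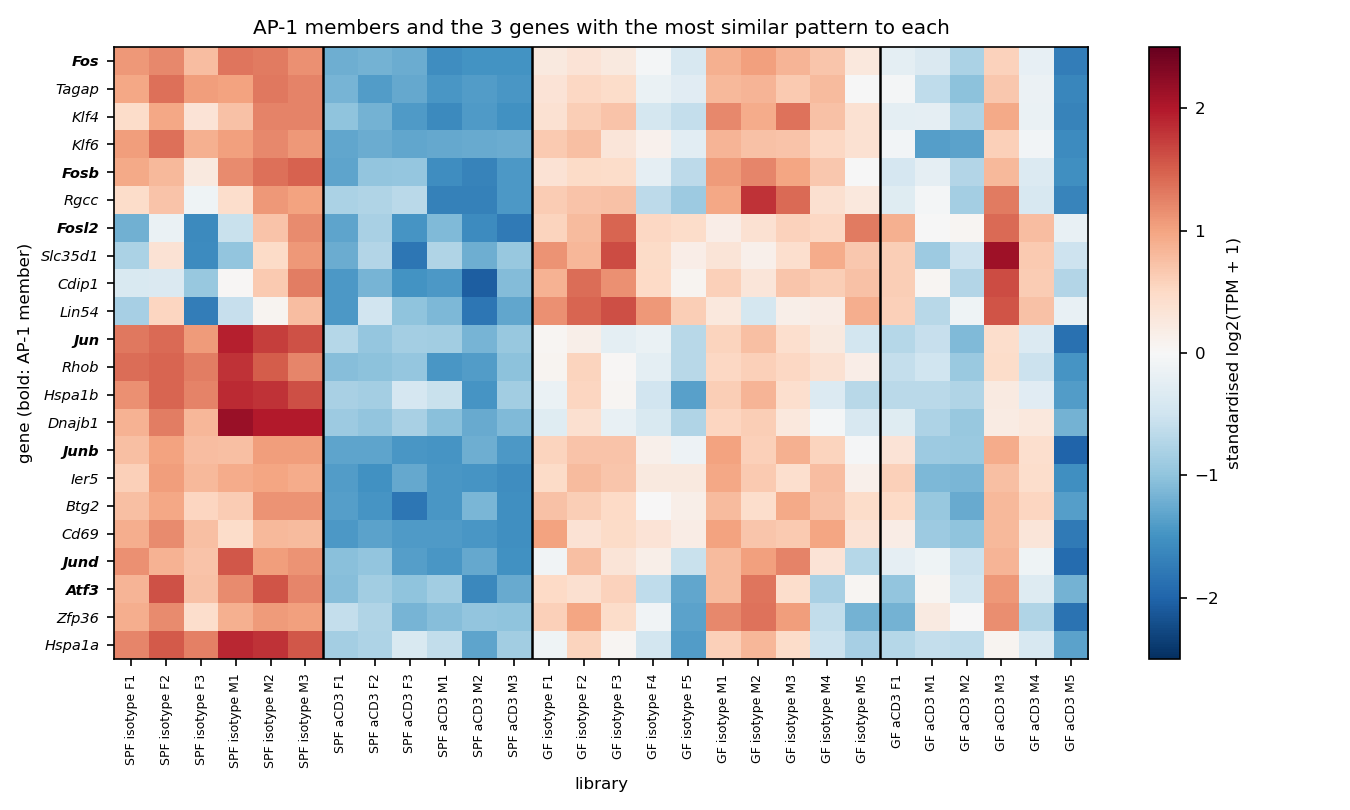
Standardised log2(TPM + 1) (colour scale, red high and blue low) of the 7 tested members, in bold, and of the 3 genes most like each, by library and group. Most members are high in SPF isotype and low in SPF aCD3, Jun and the chaperone genes are highest in SPF isotype, and GF aCD3 M5 is the lowest of the 6 GF aCD3 libraries for every member shown.

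Other genes of the pathway were read from lists, here for SPF aCD3 against SPF isotype, where over all 12182 genes 1726 were higher and 6172 (50.7%) lower. Nothing particular to a list follows from a share near these. Of 12 other bZIP partners tested, 3 rose and 8 fell. Maff, a small Maf protein, fell from 41.6 ± 9.2 to 10.1 ± 0.952 TPM (-1.91, limma adjusted p = 1.94e-06), and Mafk fell from 30.4 to 10.8 TPM (-1.42). Batf, the partner of Jun proteins and Irf4 in effector T cells, rose from 11.1 ± 1.12 to 16.5 ± 1.07 TPM (0.54, limma adjusted p = 0.00383). Of 5 partners at composite sites, 2 rose and 2 fell. Irf4 rose from 55.7 to 90.1 TPM (0.68, limma adjusted p = 0.0199) and Nfatc3 rose by 0.44 on the log2 scale, whereas Nfatc2 fell from 24.0 to 8.97 TPM (-1.31, limma adjusted p = 3.1e-05). Ets1 fell by 0.39 but was at 0.02 after median of ratios scaling.

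Upstream, 2 of 18 kinases and serum response factors rose and 12 fell, with a median of -0.35, the same as over all genes. After median of ratios scaling 6 rose and 5 fell, where 3680 of all 12182 genes rose and 3628 fell. Mapk8, the Jun kinase JNK1, fell from 7.16 to 3.01 TPM (-1.02) and Mrtfa, a cofactor of Srf, from 16.3 to 7.85 TPM (-0.96). Srf itself rose from 25.8 to 34.4 TPM (0.41), as did Map2k3, a p38 kinase kinase, from 11.6 to 16.5 TPM (0.48). All 4 turnover genes fell, among them the ubiquitin ligase genes Cop1 (-1.08) and Itch (-0.90). Of 22 other immediate early genes 2 rose and 13 fell, where 50.7% of all genes fell. Klf4 was at -2.49, Nr4a3 at -2.39 and Dusp4, a MAP kinase phosphatase, at 0.82. After median of ratios scaling 5 of the 22 rose and 8 fell, beside the 3680 and 3628 of all genes.

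Of 13 known AP-1 and NFAT targets in T cells, 4 rose and 5 fell. The chemokine genes Ccl3 (34.2 to 397 TPM, 3.56, limma adjusted p = 5.23e-05) and Ccl4 (50.3 to 448 TPM, 3.27, limma adjusted p = 9.67e-06) rose. Il2 (16.8 to 0.341 TPM, -3.74, limma adjusted p = 3.51e-06) and Cd40lg (222 to 29.2 TPM, -2.88, limma adjusted p = 2.59e-06), which encode a T cell growth factor and a B cell help ligand, fell. Of 9 heat shock genes 4 fell, with Hspa1a at -3.73, where 50.7% of all genes were lower.

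In GF aCD3 against GF isotype fewer of these passed. Maff (-0.79) was the only bZIP partner of 12, Klf4 (-1.13) and Klf6 (-0.92) were among 3 of 22 immediate early genes, and Cd40lg (-1.17) and Cd69 (-0.69) among 3 of 13 targets, all lower. On unscaled TPM none of the kinases, composite partners, turnover or heat shock genes passed with limma, with 6 of 18, 1 of 5, 3 of 4 and 3 of 9 at an unadjusted p under 0.05, where 4351 of all 12182 genes were. Over all genes 300 were higher and 562 lower. With median of ratios scaling Elk1 (0.49) and Elk3 (0.30) were higher and Mapk8 lower (-0.27) among the kinases and serum response factors, and Batf was higher and Mafk lower beside Maff. Among the targets Tnf then lost its call (-0.33, limma adjusted p = 0.0699) and Il2 gained one (-1.32, limma adjusted p = 0.0487). With that scaling 685 of all 12182 genes were higher and 490 lower. In GF isotype against SPF isotype, 3 of 9 heat shock genes were lower, among them Hspa1a (-2.60, limma adjusted p = 0.000554), where 0.755% of all genes were lower. Klf2 was lower among the 22 immediate early genes (-1.28, limma adjusted p = 0.0298). After median of ratios scaling Klf6 joined it (-0.67, limma adjusted p = 0.0213), where 1.16% of all genes were lower. Nfatc1, Dusp2 and Mapk9 were higher, where 782 of all 12182 genes were, though not after median of ratios scaling. In GF aCD3 against SPF aCD3, 8 of 12 bZIP partners, 13 of 18 kinases and serum response factors, 3 of 5 composite partners, 8 of 22 immediate early genes, 7 of 13 targets and 4 of 4 turnover genes were higher, where 48.9% of all genes were. With median of ratios scaling these counts were 6, 5, 2, 3, 4 and 1, where 16.0% of all genes were higher. Crem (1.19), Nr4a3 (2.03), Il2 (2.27) and Cop1 (0.99) were examples, while Ccl3 (-2.61) and Irf4 (-0.85) were lower. The aCD3 effect differed between GF and SPF mice for 3 immediate early genes, with Dusp1 at 1.43 and Btg2 at 1.33, for Atf2 (0.61) and Atf4 (0.63) among bZIP partners, Atf4 not after median of ratios scaling (0.38, limma adjusted p = 0.0817), and for 3 heat shock genes, with Hspa1a at 2.80 (limma adjusted p = 0.0218), where 2.44% of all genes passed above 0. That scaling also added calls, where over all 12182 genes it gave 646 above 0 and 736 below. Maff joined Atf2, and immediate early genes went from 3 to 5 with Nr4a3 and Klf6. Of the 13 targets 2 then passed above 0 (Il2 and Cd40lg) and 2 below (Ifng and Ccl4), where none had passed before. Among 18 kinases and serum response factors Mapk8 and Mrtfa passed above and Srf and Map2k3 below. Cop1 and the heat shock gene Hsph1 also passed above 0 and Nfatc3 below. These comparisons share control or treated libraries, so their values are not independent.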

How the data were processed

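The authors deposited 1 table of TPM for 25124 genes. Per the file headers, TPM came from analyzeRepeats.pl of HOMER on mm10, with a gene's transcripts condensed and 1 column per library. The deposited length equals the end minus the start in 99.24% of rows, so TPM are per base of genomic span. The aligner's version, read filters and use of strand are not given in the sources used here. The labels name both a total RNA kit and polyA RNA as the molecule. A further 26 TPM columns belong to no sample listed here and were left out.

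Whole reads were recovered from TPM times length (100.0% of low values whole within 0.1 read). Genes with at least 1 TPM in at least 6 libraries (12182) were tested with limma 3.58.1 (R 4.3.3) on log2(TPM + 1), fitting group means plus sex to all 28 libraries with a trended empirical Bayes step, which gives every comparison a shared spread. P-values were adjusted by Benjamini-Hochberg over all genes within a comparison, at 0.05. The shared spread can understate that of GF aCD3, where most members varied more than in SPF aCD3. Log2 fold changes on that scale understate changes of weakly expressed genes. The test was also run on simulated data, whose outcome is not reported here. Ratios of TPM were compared by exact permutation tests in SciPy 1.17.1. Named genes were the 8 members, the 3 genes most like each, and per list and comparison at most the 2 highest and 2 lowest past the threshold with a mean of at least 5 TPM in a group. Named outside that rule were some calls that median of ratios scaling added or removed, and some cell type markers. The members and lists were chosen with earlier results of these data known. Alternatives were other pseudocounts, filters, scalings and covariates, array weights, limma-voom on recovered reads, and leaving out each library.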

Additional observations from a re-analysis of the deposited data

Results flagged for a closer look

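Atf3 in GF aCD3 M3, the highest of the 6 GF aCD3 libraries at 13.7 TPM (13.72), lay far from the other 5, which ran from 2.36 to 6.47 TPM. This was 1 of 32 sets of gene and group examined, and chance alone flags about 1 set in 20. The same library was the highest of its group for all 7 tested members.

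The aCD3 effect differed between germ-free and colonised mice for 4 members by a test of the difference itself. On the log2 scale the GF effect minus the SPF effect was 1.5 for Fos, 1.55 for Jun, 0.96 for Jund and 1.66 for Atf3, each with a limma adjusted p under 0.05. For Jun it lay mostly between the isotype groups, where GF against SPF was -1.42, against 0.13 in aCD3. Without GF aCD3 F1, none of the 7 tested members passed.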

How the results depend on the processing

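For SPF aCD3 against isotype, 6 or 7 of the 7 members tested on unscaled TPM passed in every alternative run, Fosl2 being lost with median of ratios scaling, limma-voom and without Rn45s and histone genes. In that last setting Fosl1 was tested as well and passed in the other direction. The other counts of members passing limma's threshold moved. For GF aCD3 against GF isotype (3), 0 passed with a pseudocount of 0.1, with no low-value filter, with the replicate block, and in GF run 1 or GF run 2 alone, the last pair chosen after seeing the data, 2 with median of ratios scaling, limma-voom or without Rn45s and histone genes, and 4 with no sex term or array weights. For GF against SPF isotype (2), 1 passed with a pseudocount of 0.1, no filter, the replicate block or GF run as a term, 3 with a pseudocount of 5 or a filter at 5 TPM, 4 with median of ratios scaling, without Rn45s and histone genes or with limma-voom on recovered reads, Fosl2 being higher among those without Rn45s and histone genes, and 5 with array weights. For GF against SPF aCD3 (5), 3 passed with no filter or array weights, 1 with median of ratios scaling or limma-voom, and 6 with the replicate block or GF run as a term. Without Rn45s and histone genes 3 of these 7 passed, and Fosl1 was lower. For the difference of the aCD3 effects (4), 2 passed with no filter or array weights, 3 with a pseudocount of 5, 5 with no sex term, and 6 with a pseudocount of 0.1, limma-voom or GF run as a term. Leaving out 1 library gave 6 to 7, 0 to 5, 1 to 3, 2 to 6 and 0 to 6 members in these 5 comparisons in that order. Between sexes 0 passed throughout. With GF run as a term, both GF against SPF comparisons set GF run 1 against SPF, so that setting does not adjust them for run.

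Signs turned in GF aCD3 against GF isotype for Fosl2, to 0.07 with median of ratios scaling and limma-voom, 0.066 without Rn45s and histone genes and 0.047 in GF run 1. In GF against SPF aCD3 they turned for Jun, to -0.277 with median of ratios scaling, -0.278 with limma-voom, -0.075 without Rn45s and histone genes and -0.073 without GF aCD3 M3, where leaving out 1 library gave -0.073 to 0.36. The cause was not tested.

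Groups share replicate names, but the labels do not say that these pair animals. Over 22 same-named pairs, the correlation of deviations from group means ran from -0.302 to 0.213, so the replicate block was used as an alternative alone. It gave 7, 0, 1, 6 and 4 members in the 5 comparisons. GF aCD3 had 6 libraries, and every tested member had a wider spread relative to its mean there than in SPF aCD3. Whether this limited the calls in the GF contrasts was not tested. Fosl1 is limited by its read count.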
